A study of Drosophila melanogaster with 72 samples.

Results

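The genes *chp*, *eys*, *prom*, *crb*, *sdt*, *Patj* and *Moe*, which build the light-sensing rhabdomere and the apical membrane beside it, were followed in the nuclei of *Drosophila* photoreceptors. They were chosen by FlyBase symbol for what they are known to do, and the rule uses no measured value. Earlier results of these data were, however, known when they were chosen. The deposited tables list 24278 features, and the 7 genes were all among the 14767 that were abundant enough to test. Nuclear RNA came from male flies at D10, raised in 12-h light and 12-h dark, whose outer photoreceptors carried GFP-KASH, a nuclear envelope tag, under Rh1-Gal4, and 400 flies were pooled for each sample. The same driver expressed RNAi against the H3K4 methyltransferase Set1, Trr or Trx, or against mCherry, a fluorescent protein that serves as the non-specific control. Each genotype was sampled at ZT0, ZT4, ZT8, ZT12, ZT16 and ZT20, where ZT (zeitgeber time) counts hours from lights on, with 3 replicates. Set1 RNAi ZT20 replicate 1 holds 687 read pairs and was left out, so 71 of the 72 libraries were used. Rh1-Gal4 acts in outer photoreceptors alone, and each knockdown uses 1 RNAi line. The methods call the replicates biological, and the p-values measure the spread between them.

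A rhabdomere is a stack of actin-filled microvilli that holds rhodopsin and the phototransduction machinery. Chaoptin, the product of *chp*, is a membrane-anchored adhesion protein that holds the microvilli together. The *eys* product is a secreted proteoglycan that fills the space between the rhabdomeres of an ommatidium and keeps them apart, and prominin, the product of *prom*, acts with it at the microvilli. Crumbs (*crb*) is a transmembrane protein of the stalk membrane, the apical membrane between the rhabdomere and the cell junction, and Stardust (*sdt*) and *Patj* encode the scaffold proteins of its complex. Moesin (*Moe*) links actin filaments to the plasma membrane. Loss of *crb* makes fly photoreceptors sensitive to light-dependent degeneration.

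The coordinates are those of the deposited tables, in the BDGP6.46 build. *chp* (FBgn0267435) lies on chromosome arm 3R from 31204180 to 31210730 on the minus strand, and *crb* (FBgn0259685) lies on the same arm from 24295078 to 24314541 on the plus strand. *eys* (FBgn0031414) lies on 2L from 2311680 to 2358944 on the plus strand, and *prom* (FBgn0259210) on 2R from 24415410 to 24428387 on the minus strand. *sdt* (FBgn0261873) occupies 8178549 to 8240474 on the plus strand of chromosome X, and *Moe* (FBgn0011661) occupies 8873012 to 8898332 on its minus strand. *Patj* (FBgn0067864) lies on 3L from 1798803 to 1802184 on the plus strand. Counts were summed over the exons of each gene without use of strand. Exons of JTBR cover 5.37% of the exon bases of *Patj* and exons of CG9967 cover 0.79% of those of *eys*, and read pairs there could belong to either gene. The other 5 genes share no exon base with another listed feature.

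Several features of the whole series bear on every value below. Total counts lay between 8424081 and 24586538 read pairs per library. The mCherry and Set1 RNAi libraries were sequenced on a HiSeq instrument and the Trr and Trx RNAi libraries on a NovaSeq X Plus instrument, so instrument and genotype cannot be told apart when Trr or Trx RNAi is set against the control, and no instrument holds both sides of such a comparison. Of 14 outer photoreceptor markers, *ninaA* was at 0 in every library, and the summed level of the list was 14418 to 23195 CPM (the count scaled to library size) in Trr RNAi, 14337 to 25941 CPM in Trx RNAi and 60560 to 114487 CPM in mCherry RNAi libraries. With both Trr and Trx RNAi, all 4 inner photoreceptor markers, 4 of 4 of cone and pigment cells, 7 of 7 of other neurons, 5 of 5 of muscle, 4 of 4 of fat body, 3 of 5 of glia and 2 of 3 of hemocytes rose. The summed level of the fat body list was 6869 to 11291 CPM in Trr RNAi, 5910.0 to 11961 CPM in Trx RNAi and 1180.4 to 2451 CPM in mCherry RNAi libraries, and that of the muscle list 439 to 1835 CPM, 625 to 2082 CPM and 23.1 to 66.9 CPM. In these bulk samples, fewer nuclei of a type and less RNA per nucleus cannot be told apart. Libraries labelled Set1 RNAi had *Set1* at 265 ± 50.9 CPM (SD, n = 17), and it was at 266 ± 41.4 CPM in the control (SD, n = 18). It was at 204 ± 29.9 CPM in Trr RNAi and 187 ± 29.5 CPM in Trx RNAi libraries (SD, n = 18 each). *trr* was at 108 ± 10.1 CPM in the libraries labelled Trr RNAi, 115 ± 10.1 CPM in those labelled Trx RNAi and 219 ± 83.9 CPM in the control (SD, n = 18 each). In Set1 RNAi libraries *trr* was at 302 ± 92.0 CPM (SD, n = 17). *trx* was at 496 ± 48.9 CPM in the libraries labelled Trx RNAi, 552 ± 34.2 CPM in those labelled Trr RNAi and 558 ± 74.4 CPM in the control (SD, n = 18 each). The level of the targeted gene thus does not set the Set1 RNAi libraries apart from the control, and that of *trr* does not tell Trr from Trx RNAi libraries, so the names below are those of the labels. The paper assessed the knockdowns by other measures, among them qRT-PCR of the RNAi lines under tub-Gal4. It reports less bulk H3K4me3, the trimethyl form of the mark, in larvae with Set1 RNAi. In photoreceptors, it reports that promoter H3K4me3 depends in part on Trx and on Trr. The library mCherry RNAi ZT12 replicate 1 correlated least with its own replicates (mean r = 0.876), and the numbers of the 7 genes called below are the same without it, except where stated.

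In control nuclei, *chp* was by far the most abundant of the 7 transcripts. Per kilobase of exon, it averaged 1217 ± 311 RPKM (CPM per kilobase of exon, SD, n = 18), followed by *prom* at 404 ± 75.1 RPKM. Next came *eys* at 215 ± 47.7, *Moe* at 197 ± 92.8, *sdt* at 186 ± 39.6 and *crb* at 185 ± 84.3 RPKM, and these 4 differed by less than their spread over the day. *Patj* was the lowest, at 18.6 ± 3.22 RPKM. The order differed with Trr and Trx RNAi. *chp* still led, at 219 ± 42.6 RPKM with Trr and 196 ± 44.6 RPKM with Trx RNAi, but *prom*, at 42.8 ± 9.16 and 41.4 ± 11.6 RPKM, now stood below *Moe* (59.997 ± 12.1 and 59.0 ± 11.4 RPKM) and *sdt* (53.5 ± 7.53 and 49.1 ± 7.52 RPKM) (SD, n = 18 each). *eys*, at 48.7 ± 6.83 and 45.4 ± 7.96 RPKM, lay between *prom* and *sdt* and differed from each by less than 1 SD in both knockdowns (SD, n = 18 each).

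**Figure D1:**
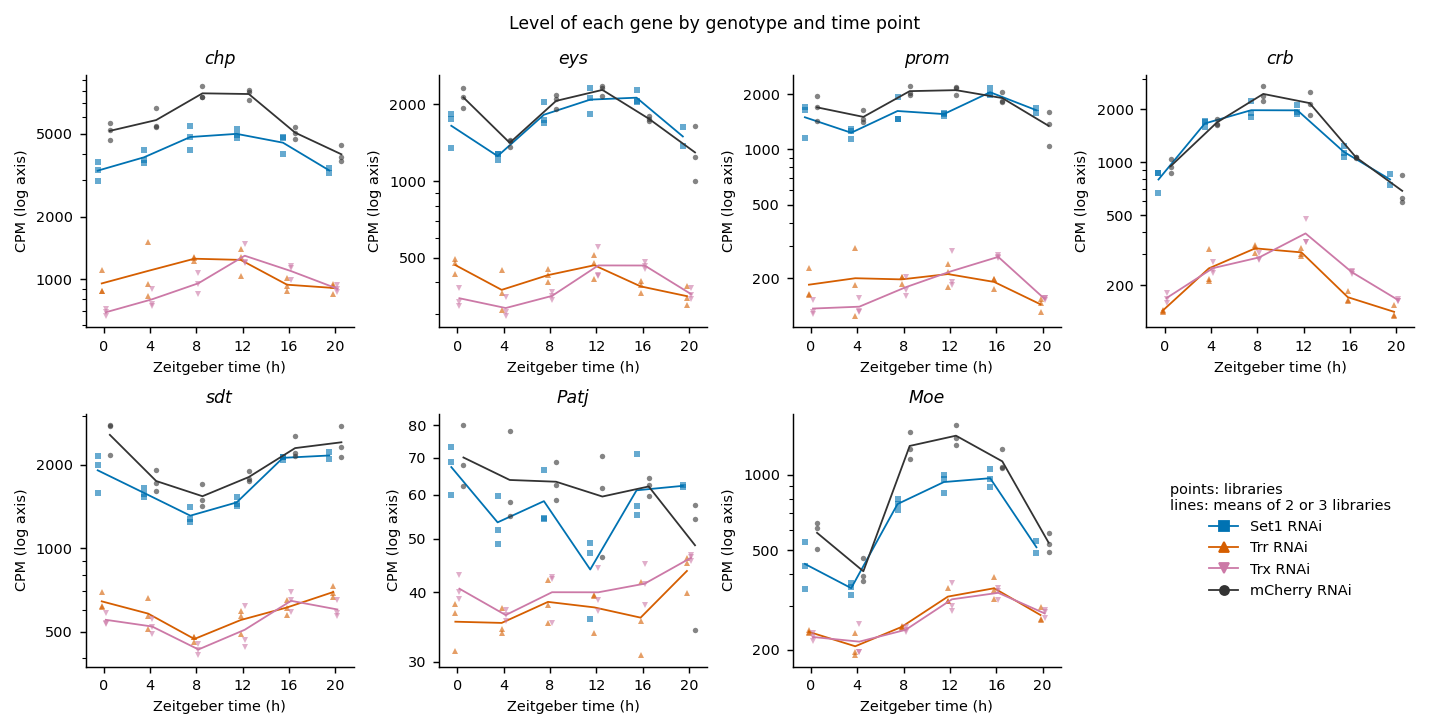
CPM (log axis) of each gene against zeitgeber time in hours, with 1 point per library and lines through the means of the 2 or 3 libraries of Set1, Trr, Trx and mCherry RNAi at each time point. The Trr and Trx RNAi points lie below all control points in the panels of *chp*, *eys*, *prom*, *crb* and *sdt*, while *Patj* reaches the control range at ZT20.

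The levels in Trr RNAi libraries were first set against those of the control. With Trr RNAi 6 of the 7 genes fell (adjusted p under 0.01 and a change of at least 1 on the log2 scale), where 17.9% of all features tested fell. The median log2 fold change of the 7 was -2.12, beside 0.08 over all features tested. Every Trr RNAi library was below every control library for 5 of the 7, *Patj* and *Moe* being the exceptions, and 8.32% of all features showed such a gap.

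Among *chp*, *eys* and *prom*, *prom* changed most. Its level was 125 CPM at the lowest, 184 at the median and 291 at the highest in the 18 Trr RNAi libraries, against 1050, 1823 and 2213 CPM in the 18 control libraries. The groups were separated by a wide gap, and the log2 fold change was -3.23 (standard error of the estimate, SE, 0.07, adjusted p = 2.27e-41, edgeR's quasi-likelihood test), which left 0.107 of the control level. *chp* ranged from 832 through a median of 981 to 1508 CPM in Trr RNAi libraries, against 3679, 5415 and 8467 CPM in control libraries. Here too the ranges did not meet (log2 fold change -2.45, SE 0.06, edgeR adjusted p = 2.43e-41). *eys* ranged from 311 through 408 to 513 CPM in Trr RNAi libraries, against 999.9, 1858 and 2361 CPM in control libraries. Its highest Trr RNAi library was still below its lowest control library, and the log2 fold change was -2.12 (SE 0.05, edgeR adjusted p = 5.27e-40).

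The Crumbs complex genes did not move by the same amount. *crb* ranged from 134 through a median of 197 to 337 CPM in Trr RNAi libraries, against 598, 1356 and 2718 CPM in control libraries, a log2 fold change of -2.70 (SE 0.05, edgeR adjusted p = 6.54e-44). *sdt*, whose product binds the Crumbs tail, ranged from 458 through 601 to 730 CPM in Trr RNAi libraries, against 1419, 2022 and 2772 CPM in control libraries. The 2 ranges stayed apart, and the log2 fold change was -1.79 (SE 0.05, edgeR adjusted p = 6.06e-39). *Patj*, the other scaffold, ranged from 30.9 through 37.8 to 46.1 CPM in Trr RNAi libraries, against 34.2, 62.0 and 80.0 CPM in control libraries. These ranges overlapped, and the log2 fold change of -0.69 (SE 0.06, edgeR adjusted p = 1.19e-15) missed the fold threshold. With 3 RUVs factors of unwanted variation in the fit, a correction of the kind the study applied, *Patj* was at -1.05 (edgeR adjusted p = 2.89e-06) and passed, which made 7 of 7, whereas with 1 such factor 6 passed. The 95% intervals of the 3 log2 fold changes were -2.80 to -2.59 for *crb*, -1.88 to -1.69 for *sdt* and -0.81 to -0.57 for *Patj*, and the differences between them were not tested.

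*Moe* ranged from 190 through a median of 256 to 390 CPM in Trr RNAi libraries, against 377, 849 and 1576 CPM in control libraries. The highest Trr RNAi libraries reached the lowest control libraries, but they come from different times of day, and at each of the 6 time points all Trr RNAi libraries were below all control libraries. The log2 fold change of its mean was -1.58 (SE 0.05, edgeR adjusted p = 2.04e-35).

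Trx knockdown gave values close to those of Trr knockdown in the comparison with the same control libraries. With Trx RNAi 6 of the 7 genes fell, where 18.7% of all features tested fell, and the median was -2.23, beside 0.09 over all features. Every Trx RNAi library was below every control library for 6 of the 7, *Patj* being the exception, and 10% of all features showed such a gap. *prom* ranged from 127 through 158 to 281 CPM in Trx RNAi libraries, and its log2 fold change was -3.31 (SE 0.07, edgeR adjusted p = 8.27e-42). *chp* ranged from 668 through 916 to 1475 CPM (log2 fold change -2.62, SE 0.06, edgeR adjusted p = 1.76e-42) and *eys* from 296 through 361 to 549 CPM (-2.23, SE 0.05, edgeR adjusted p = 7.3e-41). These values left 0.101 of the control level for *prom*, 0.163 for *chp* and 0.214 for *eys*.

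In the Crumbs complex, *crb* ranged from 158 through 239.5 to 478 CPM in Trx RNAi libraries, a log2 fold change of -2.51 (SE 0.05, edgeR adjusted p = 7.83e-43). *sdt* ranged from 411 through 547 to 696 CPM, a log2 fold change of -1.91 (SE 0.05, edgeR adjusted p = 3.04e-40). *Patj* ranged from 35.3 through 40.7 to 46.7 CPM, and its log2 fold change of -0.58 (SE 0.06, edgeR adjusted p = 5.61e-13) missed the fold threshold. *Moe* ranged from 196 through 260.5 to 369.7 CPM, so that its highest Trx RNAi library was just below its lowest control library at 377 CPM, and its log2 fold change was -1.60 (SE 0.05, edgeR adjusted p = 1.11e-35).

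**Figure D2:**
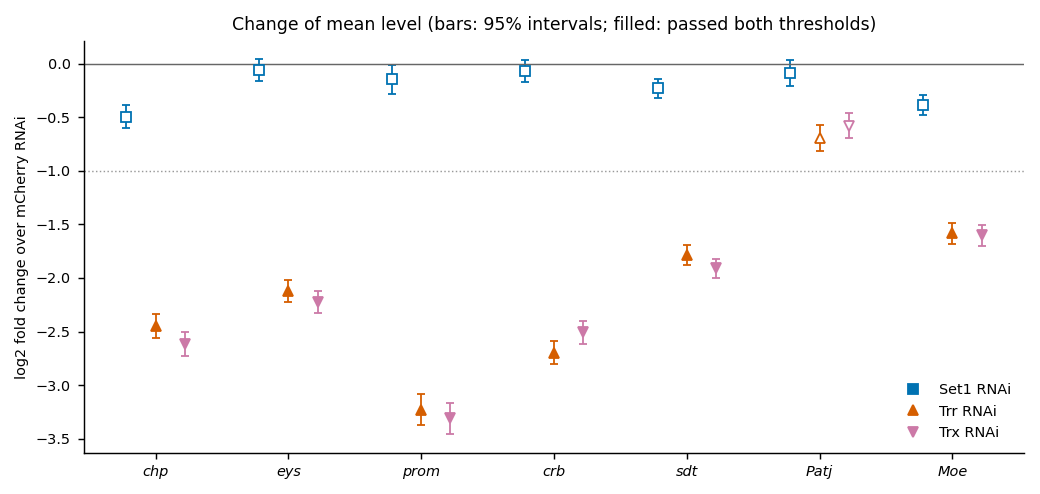
log2 fold change of the mean level over mCherry RNAi for each gene with Set1, Trr and Trx RNAi, with bars for the 95% interval, a dotted line at the fold threshold and filled symbols where both thresholds were passed. With Trr and Trx RNAi, *prom* is lowest, at -3.23 and -3.31, and *Patj* is the gene nearest to 0, at -0.69 and -0.58.

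The outer photoreceptor markers moved with the 7 genes. Of the 13 outer photoreceptor markers that could be tested, 13 were lower in Trr RNAi libraries (median -2.32) and 12 in Trx RNAi libraries (median -2.42, *Arr2* missing the thresholds). When the libraries were scaled to the mean of these markers in place of all features, the median over all features moved by 2.19 with Trr RNAi and 2.25 with Trx RNAi, and 98.0% and 98.8% of the features called were then higher, beside 61.4% and 60.3% without that scaling. Relative to the markers, 1 gene of the 7 fell past the thresholds and 1 rose past them in each knockdown. Of the 14767 features tested, 254 fell and 12451 rose with Trr RNAi, and 158 fell and 12490 rose with Trx RNAi. *prom* stayed lower, at -1.06 with Trr RNAi (edgeR adjusted p = 4.18e-28) and -1.06 with Trx RNAi (edgeR adjusted p = 4.19e-28). *Patj* was higher, at 1.504 with Trr RNAi (edgeR adjusted p = 1.64e-27) and 1.68 with Trx RNAi (edgeR adjusted p = 8.7e-30). The median over all features under this scaling was 2.27 with Trr RNAi and 2.34 with Trx RNAi, and *Patj* lay below it in both. The other 5 lay between -0.51 and 0.65, and *eys* was nearest to the markers, at 0.06 with Trr RNAi (edgeR adjusted p = 0.211) and 0.03 with Trx RNAi (edgeR adjusted p = 0.591). *chp* and *crb* were below the markers in both knockdowns, at -0.27 and -0.36 for *chp* and -0.51 and -0.25 for *crb* in Trr and Trx RNAi, whereas *sdt* (0.40 and 0.35) and *Moe* (0.60 and 0.65) were above them. Measured as the distance from the median of all features, the 7 genes had a median of -2.20 to -2.21 with Trr RNAi and -2.31 with Trx RNAi under the 3 scalings used. A change of scaling moves all features by nearly the same amount. This distance could therefore hardly differ between scalings, and its likeness is no further support. The part that a different mix of nuclei has in these values was not tested.

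**Figure D3:**
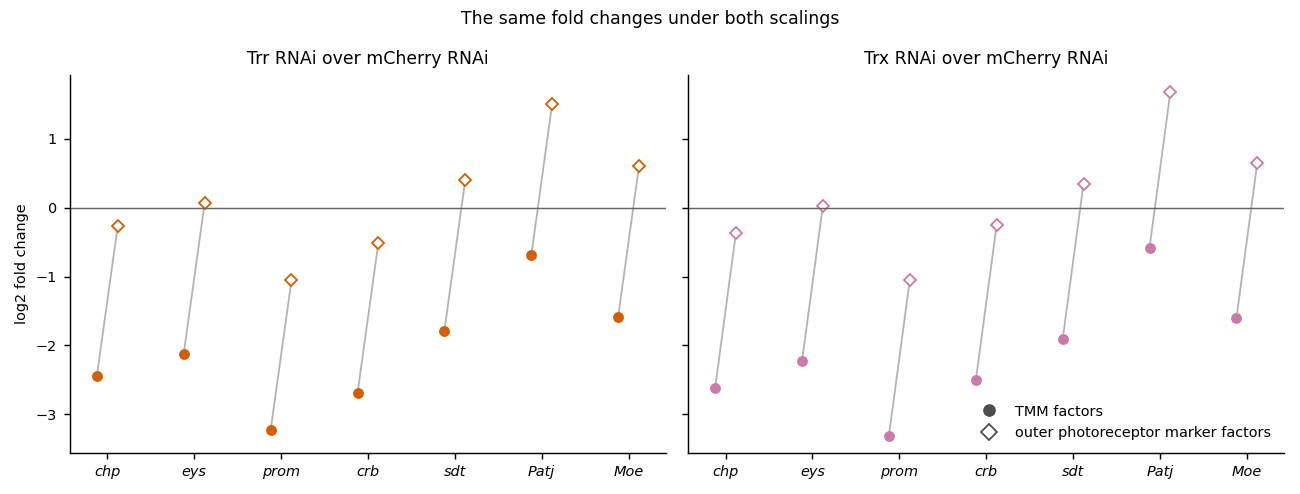
log2 fold change over mCherry RNAi of each gene with Trr RNAi and Trx RNAi, as filled circles for TMM library factors and open diamonds for factors from the outer photoreceptor markers. Under the marker factors *prom* stays near -1.06, *eys* lies near 0, and *Patj* lies at 1.504 and 1.68.

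The Trr and Trx RNAi libraries were sequenced on the same instrument and could be compared directly. None of the 7 genes passed both thresholds between them, where 1.14% of all features did. At an unadjusted p under 0.05 there were 4, and DESeq2 also called 0. The share of all features at that looser threshold was not counted, so the 4 cannot be set against it. *crb* was lower with Trr RNAi than with Trx RNAi, at 222 ± 80.8 and 249.98 ± 84.3 CPM (SD, n = 18 each), a log2 fold change of -0.19 (SE 0.05, edgeR adjusted p = 0.00881) that was far under the fold threshold. *chp* differed by 0.17 the other way (SE 0.05, edgeR adjusted p = 0.0277). For the other 5 genes the 95% intervals of the difference lay between -0.23 and 0.21, with edgeR adjusted p between 0.0714 and 0.868.

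In the libraries labelled Set1 RNAi, in which the nuclear RNA of *Set1* itself was not lower, none of the 7 genes passed the thresholds, where 8.92% of all features did. The median log2 fold change was -0.14, beside 0.01 over all features. At an unadjusted p under 0.05 there were 4, and DESeq2 also called 0. Shares of all features at that threshold, or at an adjusted p under 0.01 alone, were not counted. An edgeR adjusted p under 0.01 with a smaller change was found for 3 genes, *chp* at -0.50 (SE 0.05, edgeR adjusted p = 4.43e-11), *Moe* at -0.38 (SE 0.05, edgeR adjusted p = 2.62e-09) and *sdt* at -0.23 (SE 0.05, edgeR adjusted p = 4.22e-05). *chp* averaged 4187 ± 763 CPM (SD, n = 17) in Set1 RNAi libraries and 5928 ± 1516 CPM (SD, n = 18) in control libraries, and the Set1 RNAi libraries were all below the control libraries at 5 of the 6 time points, ZT16 being the exception. *Moe* averaged 671 ± 258 CPM (SD, n = 17) in Set1 RNAi libraries and 899.8 ± 423 CPM (SD, n = 18) in control libraries, with the groups apart at 4 of the 6 time points. For *eys*, *crb*, *prom* and *Patj* the 95% intervals lay between -0.28 and 0.04, and the edgeR adjusted p between 0.0893 and 0.357. The 13 outer photoreceptor markers had a median of -0.24 in this comparison, and relative to them *chp* was at -0.18 and *Moe* at -0.07, while the other 5 were above them by 0.09 to 0.26, none past the fold threshold.

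The size of the difference from the control varied over the day, most of all for *Moe*. With Trr RNAi, the mean level of *Moe* was 0.402 of the control at ZT0 and 0.501 at ZT4, fell to 0.189 at ZT8 and 0.228 at ZT12, and was 0.311 at ZT16 and 0.514 at ZT20. The course with Trx RNAi was nearly the same, with 0.383 at ZT0, 0.523 at ZT4, 0.184 at ZT8, 0.222 at ZT12, 0.298 at ZT16 and 0.522 at ZT20. The smallest shares fell at the times when *Moe* was high in control nuclei. At ZT8 the 3 libraries were at 249, 246 and 244 CPM with Trr RNAi and at 234, 239.55 and 246 CPM with Trx RNAi, against 1485, 1266 and 1159 CPM in the control. At ZT4 they were at 232, 196 and 190.3 CPM with Trr RNAi and at 196, 196 and 254 CPM with Trx RNAi, against 393, 377 and 464 CPM in the control. All knockdown libraries were below all control libraries at both times, by a much smaller margin at ZT4. *prom*, in contrast, stayed between 0.0948 and 0.133 of the control with Trr RNAi and between 0.0806 and 0.137 with Trx RNAi at all 6 time points. *Patj* was at 0.506 to 0.631 of the control from ZT0 to ZT16 with Trr RNAi and at 0.571 to 0.672 with Trx RNAi, with all libraries below all control libraries at those 5 time points. At ZT20 it was at 0.899 and 0.949 of the control, the control libraries then being at 57.5, 54.3 and 34.2 CPM, and the groups overlapped.

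**Figure D4:**
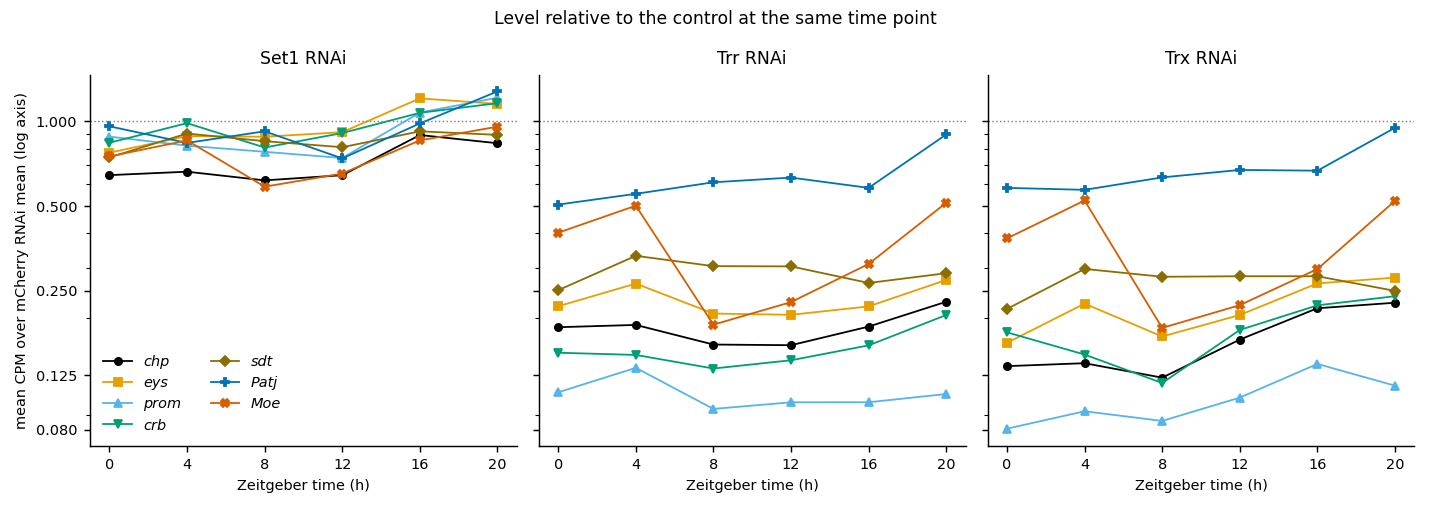
Mean CPM divided by the mCherry RNAi mean at the same time point (log axis, dotted line at 1) against zeitgeber time in hours, for Set1, Trr and Trx RNAi, with 1 line per gene. *Moe* dips to 0.189 with Trr RNAi and 0.184 with Trx RNAi at ZT8 and is at 0.501 or more at ZT4 and ZT20, while *prom* does not exceed 0.137 in either.

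Daily rhythms were examined by fitting a 24-h cosine to each genotype, with a threshold of 0.05 on the adjusted p. In control nuclei 5 of the 7 genes were rhythmic, where 42.6% of all features were. The 2 largest rhythms were those of *crb* and *Moe*. *crb*, *chp*, *prom* and *Moe* had fitted peaks between ZT8.64 and ZT12.1, and *sdt* had its peak at night. *crb* had a peak-to-trough difference of 1.87 on the log2 scale with a peak at ZT8.64 (edgeR adjusted p = 1.34e-20). Its libraries were at 2391, 2243 and 2718 CPM at ZT8 and at 622, 843 and 598 CPM at ZT20. *sdt*, which encodes the direct partner of Crumbs, had a difference of 0.74 and peaked at ZT20.35 (edgeR adjusted p = 2.25e-08), with 1489, 1707 and 1419 CPM at ZT8 and 2134, 2767 and 2322 CPM at ZT20. The ZT8 libraries of *crb* were thus all above its ZT20 libraries, and those of *sdt* all below. *Patj* had a difference of 0.23 and did not pass (edgeR adjusted p = 0.336).

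*Moe* had a difference of 1.71 and peaked at ZT12.1 (edgeR adjusted p = 7.44e-15). Its mean level was 411 ± 46.4 CPM at ZT4 and 1303 ± 166 CPM at ZT8 (SD, n = 3 each), the largest step between neighbouring time points for this gene. *chp* had a difference of 0.94 with a peak at ZT8.90 (edgeR adjusted p = 5.24e-10), and *prom* one of 0.54 with a peak at ZT10.8 (edgeR adjusted p = 0.00807). *eys* had a difference of 0.40 and missed the threshold (edgeR adjusted p = 0.0671). It passed where all libraries had to reach 1 CPM (edgeR adjusted p = 0.0226) and with all 72 libraries (edgeR adjusted p = 0.0498). Leaving out replicate 2 in all groups removed the call of *prom* (edgeR adjusted p = 0.0642).

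With Set1 RNAi 6 of the 7 genes were rhythmic, where 34.1% of all features were. *crb* (1.57 on the log2 scale, peak at ZT9.08), *Moe* (1.47, ZT13.4), *sdt* (0.76, ZT19.9) and *chp* (0.66, ZT11.1) were rhythmic as in control nuclei. *prom* (0.52, ZT15.9, edgeR adjusted p = 0.0164) and *eys* (0.62, ZT14.0, edgeR adjusted p = 0.00272) also passed. *Patj* had a difference of 0.40 (edgeR adjusted p = 0.0593), just short of the threshold. It passed with DESeq2 size factors (edgeR adjusted p = 0.0393), where all libraries had to reach 1 CPM (0.0439), with 1 and 3 RUVs factors (0.0373 and 0.0444), in the DESeq2 test (DESeq2 adjusted p = 0.028) and without mCherry RNAi ZT12 replicate 1 (edgeR adjusted p = 0.0412), which made 7 of 7. The call of *prom* was lost without replicate 1 and without replicate 2 (edgeR adjusted p = 0.0576 and 0.156), which left 5 genes, and under the marker scaling (edgeR adjusted p = 0.202). The rhythm itself was not shown to differ between Set1 RNAi and control nuclei for any of the 7, where 3.6% of all features changed. At an unadjusted p under 0.05 there were 5, with the share of all features not counted, and DESeq2 also called 0.

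With Trr RNAi 4 of the 7 genes were rhythmic, where 5.88% of all features were. Of the 13 outer photoreceptor markers tested, 7 were rhythmic with Trr RNAi, beside 9 with Set1 RNAi and 7 in control nuclei. *crb* kept a difference of 1.39 with a peak at ZT8.90 (edgeR adjusted p = 1.96e-13). Its libraries were at 337.5, 330.3 and 303 CPM at ZT8 and at 135, 154 and 134 CPM at ZT20, so the 2 times did not overlap. *chp* (0.52, ZT8.68, edgeR adjusted p = 0.00304), *sdt* (0.48, ZT20.7, edgeR adjusted p = 0.00181) and *Moe* (0.74, ZT15.1, edgeR adjusted p = 0.00136) also passed. *prom* (0.39, edgeR adjusted p = 0.284), *eys* (0.16, edgeR adjusted p = 0.87) and *Patj* (0.13, edgeR adjusted p = 0.891) did not. This count rests on all 3 replicates, since 3 genes passed without replicate 1, 1 without replicate 2 and 2 without replicate 3, *crb* being the gene that passed each time.

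With Trx RNAi 6 of the 7 genes were rhythmic, where 4.06% of all features were. Of the 13 outer photoreceptor markers tested, 8 were rhythmic with Trx RNAi, so a rhythm there was not particular to the 7 genes. *crb* had a difference of 1.19 with a peak at ZT10.3 (edgeR adjusted p = 5.79e-11), *prom* one of 0.92 with a peak at ZT13.8 (edgeR adjusted p = 3.29e-05) and *chp* one of 0.81 with a peak at ZT13.0 (edgeR adjusted p = 6.29e-07). The *prom* libraries were at 267, 256 and 259 CPM at ZT16 and at 131, 127 and 151 CPM at ZT0, with no overlap. *eys* (0.57, ZT14.4, edgeR adjusted p = 0.036), *sdt* (0.47, ZT19.1, edgeR adjusted p = 0.00227) and *Moe* (0.69, ZT15.1, edgeR adjusted p = 0.0039) passed with all replicates. *eys* and *Moe* lost the call whichever replicate was left out and under the marker scaling (edgeR adjusted p = 0.369 and 0.261), and *sdt* lost it without replicate 2 and without replicate 3, so that 4 of the 7 passed without replicate 1 and 3 without replicate 2 or 3.

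**Figure D5:**
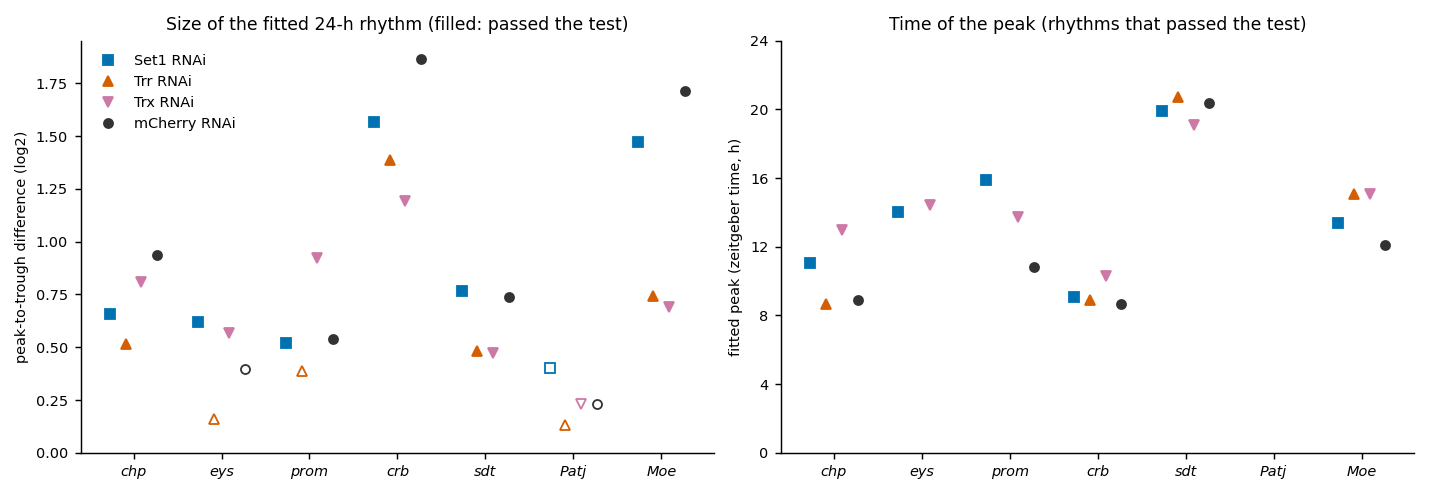
Left, peak-to-trough difference of the fitted 24-h rhythm (log2 scale) of each gene in Set1, Trr, Trx and mCherry RNAi, filled where the rhythm passed the test; right, the fitted peak in zeitgeber time for those that passed. *crb* is rhythmic in all 4 genotypes with peaks between ZT8.64 and ZT10.3, *sdt* peaks between ZT19.1 and ZT20.7, and *Patj* passed in none.

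A change of rhythm against the control was tested directly, with 1 test of the cosine and sine terms together. Each p below thus covers size and peak time jointly, and the size alone was not tested. With Trr RNAi 1 of the 7 genes changed, where 21% of all features did, and with Trx RNAi 3 changed, where 17.6% did. *Moe* changed in both. Its peak-to-trough difference was smaller by 0.97 with Trr RNAi, which is a log2 difference of -0.97 (edgeR adjusted p = 9.42e-06) with a peak later by 2.99 h, and smaller with Trx RNAi by a log2 difference of -1.02 (edgeR adjusted p = 7.1e-06) with a peak later by 3.00 h. *crb* had a smaller rhythm with Trx RNAi (-0.68, peak later by 1.64 h, edgeR adjusted p = 0.000106), and with Trr RNAi its value was -0.48 (edgeR adjusted p = 0.0643). *chp* peaked 4.10 h later with Trx RNAi at nearly the same size (-0.13, edgeR adjusted p = 6.16e-05). With Trx RNAi, *prom* had a rhythm larger by 0.38 and a peak later by 2.94 h, a change that did not pass (edgeR adjusted p = 0.0607). It passed where all libraries had to reach 1 CPM (0.0386), with 3 RUVs factors (0.0336) and in the DESeq2 test (DESeq2 adjusted p = 0.049), which called 4 genes. None of the 4 calls for *Moe*, *crb* and *chp* was lost when a replicate was left out or when the libraries were scaled to the photoreceptor markers. For *sdt*, the values of -0.26 with both Trr and Trx RNAi did not pass (edgeR adjusted p = 0.328 and 0.206), though they did under the marker scaling (-0.44 and -0.48, edgeR adjusted p = 0.0114 and 0.00353).

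Between Trr and Trx RNAi, the rhythm of none of the 7 genes differed at an adjusted p under 0.05, where 0.0271% of all features did. At an unadjusted p under 0.05 there were 4, with the share of all features not counted, and DESeq2 called 2, *chp* and *prom*. For *chp*, the Trr RNAi peak was earlier than the Trx RNAi peak, a shift of -4.32 h (edgeR adjusted p = 0.0878), and for *prom* the shift was -5.05 h with a size difference of -0.53 (edgeR adjusted p = 0.161). At ZT0 *chp* was at 1106, 877 and 880.4 CPM with Trr RNAi and at 717, 668 and 697 CPM with Trx RNAi, whereas at ZT16 it was at 881, 932 and 1011 CPM with Trr RNAi and at 1164, 1132 and 987 CPM with Trx RNAi. The 2 knockdowns did not overlap at ZT0 and overlapped at ZT16. At ZT4 the Trr RNAi replicates also lay far apart, with *prom* at 291, 183 and 125 CPM.

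A choice among 52 models, which lets each genotype have no rhythm, a rhythm of its own or one shared with others, placed 4 of the 7 genes with a BIC weight of at least 0.4. *Moe* (weight 0.689) and *sdt* (0.462) were placed where Trr and Trx RNAi share 1 rhythm and Set1 RNAi and the control share another, the model of 3.69% of the 9588 features placed. *crb* (0.488) was placed where Trx RNAi has a rhythm of its own and the other 3 genotypes share 1, and *prom* (0.492) where Set1 and Trx RNAi share 1 rhythm and Trr RNAi and the control share another. These models were chosen for 0.115% and 0.167% of the features placed. *chp*, *eys* and *Patj* stayed under the weight limit. For *sdt*, the direct test of a change of rhythm did not pass with Trr or Trx RNAi (edgeR adjusted p = 0.328 and 0.206). For *prom* it did not pass with Set1 or Trx RNAi (edgeR adjusted p = 0.144 and 0.0607). The models are thus a description, and for these 2 genes the difference they place was not shown by that test.

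The features whose pattern over the 24 group means was most like each gene were sought among 6315 abundant ones, as a description, since the means share libraries. The means also hold the difference of Trr and Trx RNAi from the control, so genes that fell in both reach a high r whatever their time course. *chp* was most like *ninaC* (Pearson r = 0.9958), which encodes the myosin of the rhabdomere, and *CarT* (0.9898), which encodes a carcinine transporter of photoreceptors. *eys* was most like *prom* (0.9905), its partner at the microvilli, and *norpA* (0.9866), which encodes the phospholipase C of phototransduction. Over the 6 time points within a genotype, *eys* and *prom* had r = 0.872 in mCherry, 0.78 in Set1, 0.649 in Trr and 0.925 in Trx RNAi. *prom* itself was most like CG42383 (0.9978) and CG3558 (0.9919). For *crb* these were CG14186 (0.9851) and *kermit* (0.9846), for *sdt* CG1695 (0.9957) and *l(1)G0289* (0.9927), and for *Moe* *hbt* (0.9718) and CG33298 (0.9667). *Patj* had the weakest likeness, to *Hyccin* (0.9588) and CG6420 (0.9485).

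Partners of the 7 proteins were read from 2 lists. Of all features tested, 17.9% fell with Trr RNAi and 18.7% with Trx RNAi, and 4211 of 14767 rose with each. Of 13 polarity and junction partners of the Crumbs complex, 6 fell and 1 rose with Trr RNAi (median -0.96), and 7 fell with Trx RNAi (median -1.08), the other 6 lying between -0.42 and 0.94. With Set1 RNAi the 13 lay between -0.47 and 0.30, short of the fold threshold. *dlg1*, which encodes a scaffold of the lateral membrane, averaged 816 ± 166 CPM with Trr RNAi, 674 ± 128 CPM with Trx RNAi and 3829.9 ± 386 CPM in the control (SD, n = 18 each), log2 fold changes of -2.24 and -2.51. *baz*, the fly Par-3, fell as well (log2 fold changes of -2.15 and -1.70 for Trr and Trx RNAi). So did *scrib*, another lateral scaffold (-1.59 and -1.68), and *kst*, the heavy beta spectrin that joins Crumbs to the cytoskeleton (-1.66 and -1.38). The gene that rose with Trr RNAi was *l(2)gl* (1.04), named after its value was seen, and with Trx RNAi it was at 0.94. *aPKC*, which phosphorylates Crumbs and was likewise named after its values were seen, was at -0.08 with Trr RNAi and -0.24 with Trx RNAi.

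Of 14 regulators of actin, trafficking and Moesin, 13 could be tested, of which 7 fell and 1 rose with Trr RNAi (median -1.42), and 7 fell and 2 rose with Trx RNAi (median -1.42). With Set1 RNAi the 13 lay between -0.37 and 0.22, short of the fold threshold. *ninaC* was at 1588 ± 224 CPM with Trr RNAi, 1536 ± 285 CPM with Trx RNAi and 8393 ± 1982 CPM in the control (SD, n = 18 each), log2 fold changes of -2.38 and -2.44. *bif*, which encodes an actin-binding protein of the rhabdomere, was at -2.01 and -2.31. *Slik*, the kinase that phosphorylates Moesin, was at -1.92 and -2.10, and *flw*, which encodes a phosphatase that acts on it, was at -1.62 and -1.82. *Amph* rose with both (1.72 and 1.55) and *Act5C* with Trx RNAi (1.15, and 0.997 with Trr RNAi), both named after their values were seen. Rhythmic regulators numbered 10 of 13 in Set1 RNAi, 3 in Trr RNAi, 4 in Trx RNAi and 11 in control nuclei, beside 34.1%, 5.88%, 4.06% and 42.6% of all features. Rhythmic polarity partners numbered 9 of 13 in Set1 RNAi and 7 in control nuclei. The lowest edgeR adjusted p among the polarity partners was 0.0867 with Trr RNAi (*dlg1*) and 0.103 with Trx RNAi (*kst*).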

How the data were processed

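Nuclear RNA of immuno-enriched outer photoreceptor nuclei was sequenced in 72 libraries. The authors trimmed reads with cutadapt 3.7 and Trimmomatic 0.39, aligned them with HISAT2 2.2.1 to BDGP6.46, handled alignments with SAMtools 1.17 and made the deposited counts of read pairs per gene with featureCounts (Subread 2.0.1, annotation release 111). The methods of the paper mention no use of molecular identifiers.

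The test took the 14767 of 24278 features for which some genotype at some time point had all its replicates at 1 CPM or more. Fits across all 71 libraries in edgeR 4.0.16 (R 4.3.3), with TMM factors and the quasi-likelihood test, gave Benjamini-Hochberg adjusted p-values over all features. The fit for means had a term for each genotype and time point, and the fit for rhythms a mean, a cosine and a sine term for each genotype. The RUVseq factors of the study were left out, their number not being given in the sources used here. A difference in mean needed an adjusted p below 0.01 with a log2 fold change of 1 or more in size, and a 24-h rhythm or its change needed one below 0.05. Rhythm models numbered 52, accepted at a BIC weight of 0.4. Totals were 8424081 to 13384021 for Set1, 10160670 to 24526117 for Trr, 12329931 to 24586538 for Trx and 8522393 to 21479511 for mCherry RNAi, and the lowest count of the 7 genes was 253. The scripts were tested on simulated data.

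The 7 genes were all named. For each, the 2 features of highest Pearson's r over the 24 group means of log2(CPM + 1), among features of at least 10 CPM on average, were named, and from each of the 2 partner lists the 4 genes of largest absolute log2 fold change among those called against mCherry RNAi. The members and lists were chosen with earlier results of these data known. Alternatives were DESeq2 1.42.0 size factors and test, marker scaling, other filters, all 72 libraries, fewer genotypes in the fit, RUVs factors, a replicate block and each replicate left out. The comparisons with mCherry RNAi share its libraries.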

Additional observations from a re-analysis of the deposited data

Results flagged for a closer look

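The rhythm of 3 of the genes differed between a knockdown and the control by a test of the difference itself, which takes size and peak time together. *Moe* had a change in peak-to-trough difference of -0.97 on the log2 scale with Trr RNAi and -1.02 with Trx RNAi, *crb* one of -0.68 with Trx RNAi, and *chp* one of -0.13 with Trx RNAi, where the peak moved by 4.10 h. The Trr and Trx RNAi values share the control libraries, and instrument and genotype cannot be told apart in them. Every genotype has 3 or fewer libraries at a time point. Single libraries were ranked by their correlation with their own replicates, and no outlier test was applied to them.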

How the results depend on the processing

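With 1 replicate left out, the numbers of the 7 genes called did not move in any comparison of means or of changes of rhythm. Scaling to the outer photoreceptor markers, under which most features tested were called higher with Trr and Trx RNAi, was the alternative that moved most. It gave 2 genes called with Trr RNAi and 2 with Trx RNAi, of which *prom* was called before and *Patj* was not, and turned the sign of *Moe* (0.60 with Trr, 0.65 with Trx), *Patj* (1.504, 1.68), *eys* (0.0613, 0.0263) and *sdt* (0.40, 0.35), and with Set1 RNAi that of *Patj* (0.24), *crb* (0.25), *eys* (0.26), *prom* (0.18) and *sdt* (0.0927). Between Trr and Trx RNAi it gave -0.047 for *Moe* and -0.0013 for *prom*, and *Moe* was at -0.0019 with all 72 libraries and -0.013 where all libraries had to reach 1 CPM. For changes of rhythm, the markers gave 2 genes called with Trr RNAi, and values of 0.074 for *prom* with Trr, -0.014 for *eys* with Trx and -0.21 for *sdt* with Set1 RNAi. The stricter filter gave 3 genes with Trr RNAi and 1 between Trr and Trx RNAi, where a fit on only these genotypes gave 1 and the DESeq2 test 2. Small uncalled changes of rhythm also turned sign. *Patj* with Trx RNAi was at 0.016 with 1 RUVs factor, 0.10 with 3 and 0.0046 with no filter. *sdt* with Set1 RNAi was at -0.012 with DESeq2 size factors, -0.012 in the DESeq2 test and -0.073 with all 72 libraries, and between Trr and Trx RNAi at -0.0065 with all 72 and -0.012 with only these genotypes. *prom* with Set1 RNAi was at 0.019 with no filter and 0.0085 with only the genotypes compared. With all 72 libraries, 2 genes were rhythmic with Trr RNAi. Leaving out replicates or single libraries gave 1 to 4 rhythmic genes with Trr RNAi and 3 to 6 with Trx RNAi. The ranges of change of rhythm were -0.084 to 0.10 for *prom* and -0.034 to 0.14 for *sdt* with Set1, -0.18 to 0.013 for *Patj* with Trr, -0.23 to 0.12 for *Patj* and -0.022 to 0.29 for *eys* with Trx RNAi, and between Trr and Trx RNAi -0.11 to 0.057 for *Patj*, -0.010 to 0.071 for *Moe* and -0.0021 to 0.024 for *sdt*. The mean differed between Trr and Trx RNAi by -0.032 to 0.075 for *Moe* and -0.055 to 0.20 for *prom*. Runs without mCherry RNAi ZT12 replicate 1 and without Set1 RNAi ZT12 replicate 3 were added after seeing the data. The cause of these moves was not tested. Replicate numbers were not used to pair the samples. Same-numbered libraries deviated together (correlation over 0.1) in 4 of 17 pairs for Set1 RNAi against the control. The same held in 3 of 18 pairs for Trr and 1 of 18 for Trx RNAi against the control, and in 4 of 18 between Trr and Trx RNAi. For Set1 RNAi at ZT0 the correlations were 0.567, 0.242 and 0.174, so a shared replicate effect there was not excluded. With a replicate block, 0, 6 and 6 genes were called for mean expression with Set1, Trr and Trx RNAi. Rhythmic genes then numbered 6, 4, 6 and 5 in Set1, Trr, Trx and mCherry RNAi. These counts were the same without the block.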
